A study of Mus musculus with 14 samples.

Results

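N6-methyladenosine (m6A) peaks that lie in exons outside the annotated untranslated regions were taken from brain tissue of mice with and without an experimental haemorrhage. An exonic peak was any peak that the authors' annotation column labels exonic, next to peaks in 3′ untranslated regions (3′ UTRs), 5′ untranslated regions (5′ UTRs) and introns. The 3 group peak lists hold 31825 exonic peaks among 153110 peaks, and the 3 differential tables hold 10440 among 61314. The series measured 3 groups: 3 samples after a sham operation, 2 samples with an intracerebral haemorrhage (ICH) made by autologous blood, and 2 samples of mice with a haemorrhage that were treated by acupuncture at the GV20 point on 7 consecutive days. Each sample gave an immunoprecipitated (IP) library, made with an antibody against m6A, and an input library of unselected poly(A) RNA. Strain, age, sex, brain region and the time of sampling in the other groups were not given in the sources used here.

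m6A is deposited on messenger RNA while it is transcribed, by a methyltransferase complex built around METTL3 and METTL14. Reader proteins of the YTH family bind it and change the splicing, translation or decay of the transcript, and the demethylases FTO and ALKBH5 can remove it. In most tissues the mark lies mainly near stop codons, in the last exon and in long internal exons, and in the brain it is known for roles in neurogenesis, synaptic plasticity and the response to injury.

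The labelled tissue fitted its markers. The 10 brain markers were expressed in all 7 input libraries, from a lowest value of 16.6 FPKM (fragments per kilobase of transcript scaled to mapped fragments, the authors' unit) for the water channel gene Aqp4 to a highest of 451.2 FPKM for the astrocyte filament gene Gfap. The liver gene Alb and the keratinocyte gene Krt5 had a median of 0 FPKM, while the muscle genes Myh7 and Actn2 had 1.28 and 3.22 FPKM. Depth per library was unknown, because FPKM holds no counts. Log2 levels of the 2 ICH libraries correlated at 0.942 across genes, below the sham libraries (0.983 to 0.988) and the acupuncture libraries (0.976), and ICH replicate 2 correlated with the others at 0.910 to 0.942. ICH replicate 1 correlated more with both acupuncture libraries (0.975 and 0.969) than with ICH replicate 2. The labels do not say that samples are separate animals, so p-values measure only the spread between these samples. The peak lists and differential tables hold 1 value per group, so no spread between replicates can be set beside a peak. The FPKM table also holds an extra ICH column and an extra acupuncture (EA) column that match no sample here, and it is unknown here if those libraries entered the group peak values.

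The exonic share of peaks was close to 1 in 5 in every group. In sham, 9685 of 48251 listed peaks were exonic (20.1%), in 5671 genes. In ICH, 11918 of 54754 peaks were exonic (21.8%), in 6615 genes. In acupuncture, 10222 of 50105 peaks were exonic (20.4%), in 5881 genes. ICH thus had the most exonic peaks, and sham and acupuncture stood near each other. The 3′ UTR held more peaks in every group: 26311 in sham, 28643 in ICH and 27415 in acupuncture. Among exonic peaks whose gene symbol was found in RefSeq, 99.8% lay in protein-coding genes in each group.

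Most genes with an exonic peak also had a peak in the 3′ UTR. This held for 94.0% of them in sham, 94.4% in ICH and 94.5% in acupuncture. A 5′ UTR peak was listed for 36.1%, 41.3% and 35.1%. These genes were long. Their median genomic span was 39144 bp in sham, 35662 bp in ICH and 37688 bp in acupuncture, beside 20120, 19869 and 19949 bp for all genes with any peak. Across these genes the number of exonic peaks was weakly related to gene span (Spearman's rho across genes 0.27, 0.26 and 0.24, a description over genes that share libraries).

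A gene with an exonic peak held 1.71 of them on average in sham, 1.80 in ICH and 1.74 in acupuncture. Exactly 1 exonic peak was listed in 61.1% of these genes in sham, 56.9% in ICH and 59.7% in acupuncture. Genes with 4 or more made up 7.69%, 8.48% and 7.33% of genes, and held 22.7%, 24.3% and 21.8% of exonic peaks. In sham, genes with 1 exonic peak had a median span of 30243 bp and genes with 4 or more had 93660.5 bp.

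The genes with the most exonic peaks encode very large proteins of the cytoskeleton, of calcium release and of chromatin. Syne1, which encodes a giant spectrin-repeat protein that ties the nuclear envelope to actin, had the most in every group, with 19 in sham, 22 in ICH and 20 in acupuncture. Dst, a linker of actin, microtubules and intermediate filaments, had 15 in each group. Its relative Macf1 had 13, 15 and 19. Kmt2d, a histone H3 lysine 4 methyltransferase, had 13, 11 and 12, and the related Kmt2c had 12, 7 and 6. Of these 5 genes, Kmt2c had the widest gap between groups for its count.

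Mdn1, an AAA ATPase of ribosome assembly, had 5 exonic peaks in sham, 15 in ICH and 16 in acupuncture. Their median genomic width was 3183 bp in sham, 949 bp in ICH and 900.5 bp in acupuncture. The calcium release channel genes Ryr2 and Ryr3 had 9, 14 and 11 peaks and 8, 18 and 6 peaks. Median widths were 976, 1866.5 and 3694 bp for Ryr2 and 12187, 4985 and 7295.5 bp for Ryr3. Whether a higher count means more marked places or wide peaks listed in parts was not tested. Vcan, a large proteoglycan of the extracellular matrix, had 13, 11 and 11. The input level of Ryr3 was 3.38, 2.91 and 3.30 FPKM in the sham libraries, 2.56 and 2.45 FPKM in ICH and 1.37 and 1.43 FPKM in acupuncture, with groups that did not overlap. Ryr3 RNA was lower in acupuncture than in sham (log2 fold change on log2(FPKM + 1) -0.81, SE 0.10, limma adjusted p = 0.00269), while its level in ICH did not pass the test against sham (-0.26, SE 0.10, limma adjusted p = 0.196). Mdn1 RNA lay between 1.76 and 2.51 FPKM in all 7 libraries and passed no test.

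**Figure D1:**
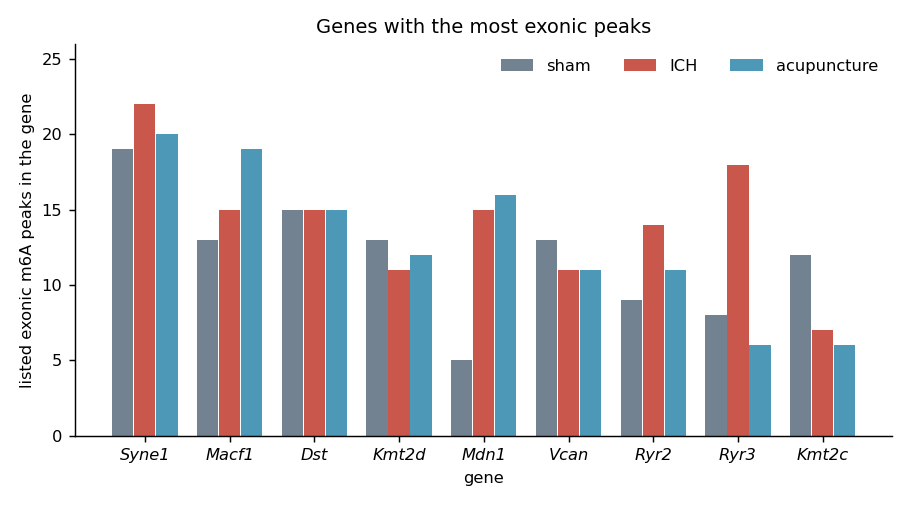
Number of listed exonic m6A peaks (vertical axis) in the 9 genes named for having the most, with 1 bar per group. Syne1 leads in every group, while Mdn1 goes from 5 peaks in sham to 15 in ICH and 16 in acupuncture, and Ryr3 stands at 18 in ICH beside 8 and 6. Bars count peaks and not bases covered, and median peak width in Mdn1 and Ryr3 also differs between groups.

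Exonic peaks covered a wide range of widths. The median genomic width was 1482 bp in sham, 1491.5 bp in ICH and 1452.5 bp in acupuncture, beside 450, 500 and 450 bp for 3′ UTR peaks. These widths run from the start to the end on the genome, introns included, so a peak over an exon junction carries the intron's length. The narrowest exonic peaks were 100 bp, and 42.4%, 42.3% and 43.2% spanned at most 1000 bp. A width that is an exact multiple of 25 bp was found in 72.3%, 71.6% and 72.4% of the exonic peaks of at most 1000 bp, and in 6.35%, 6.66% and 6.95% of the wider ones. Exonic peaks with such a width had a median of 275 bp in each group.

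Exonic peaks lay in the later part of the gene, but less so than 3′ UTR peaks. Counted from the gene's start, the median position of an exonic peak's centre was 62.8% of the gene's span in sham, 61.1% in ICH and 62.2% in acupuncture. For 3′ UTR peaks the medians were 96.0%, 95.7% and 96.0%, and for 5′ UTR peaks 9.50%, 12.01% and 11.4%. Exonic peaks of at most 1000 bp had medians of 63.4%, 62.7% and 64.5%.

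Exonic peaks were less enriched than peaks of the untranslated regions, and most enriched in ICH. Enrichment is the authors' log2 of IP over input for the whole group, and the p-values of the lists are theirs too. The median of exonic peaks was 0.80 in sham (a fold of 1.75), 1.01 in ICH (2.01) and 0.88 in acupuncture (1.83). Peaks of the 3′ UTR had medians of 1.16, 1.47 and 1.25, and peaks of the 5′ UTR 1.09, 1.24 and 1.10. A log2 enrichment of at least 1 was listed for 31.3% of exonic peaks in sham, 51.4% in ICH and 34.3% in acupuncture. The top of the distribution differed little between groups: the 95th percentile of exonic peaks was 2.32, 2.26 and 2.26.

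Within the same gene, the exonic peaks were the weaker ones. Among genes with both kinds, the median exonic log2 enrichment lay below the median 3′ UTR enrichment in 4157 of 5329 genes in sham (78.0%), 5194 of 6247 in ICH (83.1%) and 4413 of 5557 in acupuncture (79.4%). The median of the difference was -0.36, -0.49 and -0.38 on the log2 scale. Genes are not replicates, so no test was made of these differences.

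**Figure D2:**
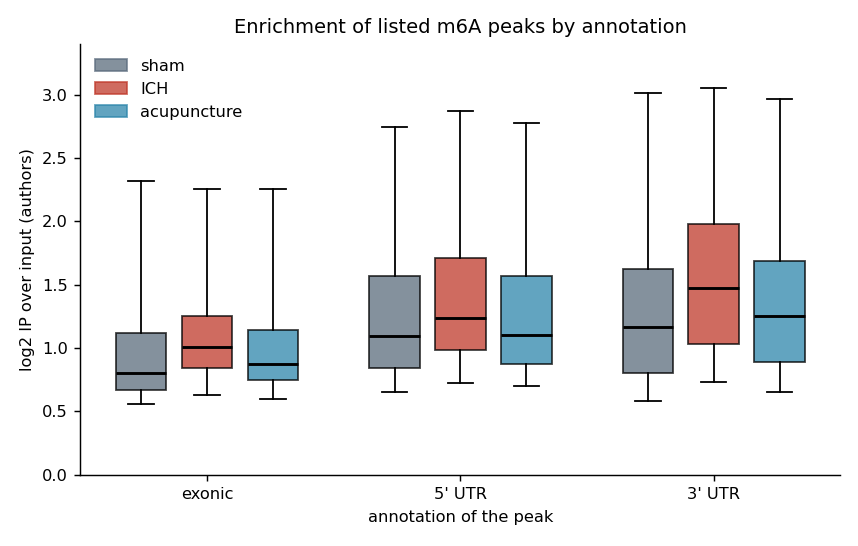
Authors' log2 IP over input of listed peaks by annotation and group. Lines inside the boxes are medians, boxes run from the 25th to the 75th percentile and whiskers from the 5th to the 95th over peaks; exonic medians (0.80, 1.01 and 0.88) lie below those of both untranslated regions in each group.

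The difference between groups in exonic enrichment went with how much RNA the gene had. In genes with a mean below 1 FPKM, the median exonic log2 enrichment was 1.36 in sham, 1.30 in ICH and 1.19 in acupuncture. In genes above 20 FPKM, it was 0.70 in sham, 1.09 in ICH and 0.79 in acupuncture. So sham was the highest of the 3 groups in the lowest genes and the lowest in the highest genes. Between these, the medians were 0.83, 0.92 and 0.88 for 1 to 5 FPKM and 0.73, 1.02 and 0.85 for 5 to 20 FPKM. The lists hold only peaks with a p under 0.05, so these medians describe listed peaks, not all exons.

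**Figure D3:**
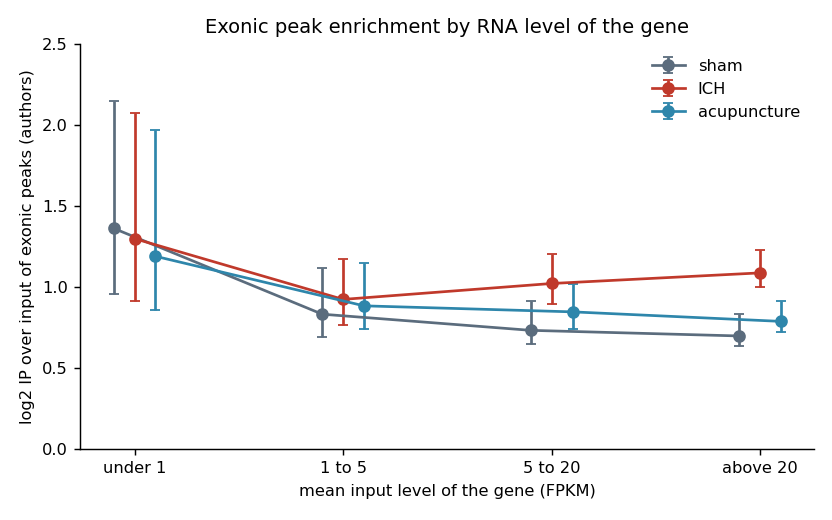
Median log2 IP over input of exonic peaks (points) with the 25th to 75th percentile over peaks (bars), by mean FPKM of the gene over the 7 input libraries. The sham line falls from 1.36 to 0.70, while ICH ends at 1.09 in genes above 20 FPKM.

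Over all exonic peaks the highest log2 enrichment was 7.64 in sham, 7.13 in ICH and 7.40 in acupuncture. The peaks named here are the strongest of at most 1000 bp in genes averaging at least 1 FPKM, with an approved symbol and outside chromosome 18. In sham the strongest of these was in Fam205a3 (chr4:42322191-42322690), with a log2 enrichment of 7.50; this gene belongs to a cluster of near-identical copies, so its reads are uncertain. Zxdb, a zinc finger gene on the X chromosome (chrX:94726919-94727268), followed with 6.72. Lcorl, a gene linked to body size in mammals, had 5.97 (chr5:45727100-45727399). Tmem267 (chr13:119495037-119495361) had 5.11, Agap3 had 4.96 and the zinc finger gene Zfp433 had 4.82. Coordinates are on the mouse build GRCm38.

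In ICH the strongest of these was in Lgr6, a receptor for R-spondins (chr1:134987126-134987750), with 5.66. Unc13b, which primes synaptic vesicles, had 4.06 in ICH and 3.89 in acupuncture, where it was the strongest by this rule. The other named ICH peaks were in Rpf1 (3.88), the homeobox gene Shox2 (3.68), Dnmbp (3.62) and Rmdn2 (3.55). In acupuncture, Agap3 (3.65), Lcorl (3.59), Rnf207 (3.32), the kinase gene Fam20b (3.16) and the cadherin gene Dchs1 (3.11) followed. Agap3 and Lcorl were thus among the strongest named in both sham and acupuncture, with lower values in acupuncture. The peak of Lcorl named in sham and the one named in acupuncture were not the same peak, since they lie at different positions.

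About as many exonic peaks were found again in both other groups as were not. In sham, 5078 of 9685 exonic peaks (52.4%) overlapped a peak of any annotation in both other lists by at least 1 bp on the same strand. In ICH this was 5481 of 11918 (46.0%), and in acupuncture 5367 of 10222 (52.5%). No overlap with either other list was seen for 23.2%, 26.9% and 17.8%. With an overlap of at least 0.5 of both peaks, the share in both others fell to 23.2%, 19.4% and 23.1%, and for peaks of at most 1000 bp in every group it was 23.5%, 19.8% and 22.1%. Peaks found in both others were more enriched than those found in neither, with medians of 0.91 against 0.72 in sham, 1.14 against 0.89 in ICH and 0.98 against 0.80 in acupuncture. They were also wider, with medians of 1926 against 1003 bp in sham.

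Counted by gene, 8750 genes had an exonic peak in at least 1 group and 3539 had one in all 3. These 3539 are 62.4% of the sham genes, 53.5% of the ICH genes and 60.2% of the acupuncture genes. ICH alone listed an exonic peak in 1270 genes, sham alone in 821 and acupuncture alone in 781. A further 1028 genes were shared by ICH and acupuncture but not sham, 778 by sham and ICH, and 533 by sham and acupuncture. These counts depend on the authors' p threshold in each list, and no test of a gene's presence was made.

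The comparison of ICH with sham asks what the haemorrhage changed. Of 3764 exonic peaks listed in the authors' deposited table, 3209 had an adjusted p under 0.05, in 2496 genes. Of these, 2329 were higher in ICH and 880 were lower. That is 85.3% of the exonic peaks listed, 61.9% higher and 23.4% lower. Among all 23124 peaks of the authors' deposited table, 87.8% were called, 69.8% higher and 18% lower. The share called was near that of all peaks, with fewer higher and more lower. Only peaks with an unadjusted p under 0.05, or with none given, are listed at all.

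The direction of these calls depends on the zero point. Over all listed peaks, the median difference of log2 enrichment in the authors' deposited table was 0.56. With differences counted from that median, 1454 called exonic peaks lay above and 1755 below (45.3% above), instead of 72.6% higher. Among called exonic peaks of at most 1000 bp, 1010 were higher in ICH and 358 lower, without centring. In genes below 1 FPKM 52.5% of the called exonic peaks in the authors' deposited table were higher in ICH, in genes of 1 to 5 FPKM 64.4%, of 5 to 20 FPKM 74.5%, and above 20 FPKM 89.3%.

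Peaks of 1 gene were also compared with each other, with no centring; 72.6% of called exonic and 81.8% of called 3′ UTR peaks were higher over all genes. Of 520 genes with 2 or more called exonic peaks in the authors' deposited table, 318 had all of them higher in ICH, 95 had all lower and 107 had both directions. Of 1816 genes with called peaks in both exons and the 3′ UTR, 1197 had higher medians in both and 139 lower in both. The exonic median was higher and the 3′ UTR median lower in 179 genes, and the reverse held in 301.

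Among exonic peaks of at most 1000 bp that met the rule for named genes, the largest increases in ICH were in Exosc8 and Pkdcc. The peak of Exosc8, a subunit of the RNA exosome (chr3:54732523-54732922), had in the authors' deposited table a log2 enrichment of 2.70 in ICH and -0.49 in sham (difference 3.20, authors' adjusted p = 9.78761e-09). The peak of Kit, a receptor tyrosine kinase (chr5:75649438-75649787), had 2.38 and -0.54 in the authors' deposited table. Kit had no exonic peak in the sham list and 4 in each of the other lists. Its RNA was 3.02, 3.80 and 3.17 FPKM in sham, 4.28 and 3.75 in ICH and 2.98 and 2.90 in acupuncture, which passed no test.

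Some of these genes had almost no RNA in sham. C3, the central complement component, had 0.313, 0.176 and 0.333 FPKM in sham and 15.5 and 12.1 FPKM in ICH. Its exonic peak (chr17:57214706-57214830) stood at 0.48 in ICH and -2.46 in sham in the authors' deposited table (authors' adjusted p = 0.0420498). C3 RNA rose (log2 fold change 3.53, SE 0.27, limma adjusted p = 0.000816). Tlr1, a receptor for bacterial lipoproteins, had 0.191, 0.137 and 0.251 FPKM in sham and 1.41 and 2.36 in ICH, and its peak stood at 1.59 and -1.32 in the authors' deposited table. In both genes the sham ratio of the authors' deposited table belongs to an input level below 1 FPKM. Both met the minimum mean of 1 FPKM only through the libraries of the haemorrhage groups, where they are high.

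The other named increases were Pkdcc (difference 3.14), the histone gene H2ac18 (2.88), the nuclease gene Fan1 (2.87), the adaptor gene Dok1 (2.63), Arap1 (2.62) and the fucosyltransferase gene Pofut2 (2.62), all from the authors' deposited table. H2ac18 belongs to a multigene family, so its reads are uncertain. Pkdcc RNA was 2.44 ± 0.127 FPKM in sham (SD, n = 3) and 1.96 ± 0.372 FPKM in ICH (SD, n = 2), which did not pass the test.

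By the same rule, the largest decreases in ICH were in Lcorl and Mki67. The Lcorl peak (chr5:45727025-45727424) had 2.44 in ICH and 5.94 in sham in the authors' deposited table (difference -3.50, authors' adjusted p = 0.00477752). Lcorl RNA was 1.21, 1.15 and 1.34 FPKM in sham and 1.15 and 1.51 FPKM in ICH. Mki67, a marker of dividing cells, had a peak (chr7:135707707-135708131) at 2.19 in ICH and 5.33 in sham in the authors' deposited table (authors' adjusted p = 0.0303193). Mki67 RNA was 0.199, 0.203 and 0.188 FPKM in sham and 2.64 and 4.00 FPKM in ICH, and it rose (log2 fold change 1.83, SE 0.15, limma adjusted p = 0.000924). Mki67 met the minimum mean of 1 FPKM only through the libraries of the haemorrhage groups. No listed sham peak overlapped that Mki67 peak.

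The chemokine gene Cxcl5 showed the same pair of directions. Its peak stood at 1.19 in ICH and 3.08 in sham in the authors' deposited table (difference -1.89). Its RNA was 0.198, 0.370 and 0.458 FPKM in sham and 1.31 and 2.24 FPKM in ICH (log2 fold change 1.03, SE 0.20, limma adjusted p = 0.0323). That call was lost without any of the 3 sham libraries or without ICH replicate 2 (limma adjusted p 0.0830 to 0.125). Cxcl5 too met the minimum mean of 1 FPKM only through the haemorrhage groups. The other named decreases in the authors' deposited table were Fam205a2 (-2.44), Mtus1 (-2.28), the axonal cell adhesion gene Cntn5 (-2.22), the collagen prolyl hydroxylase gene P4ha2 (-2.03), Susd2 (-2.01), Cfap65 (-2.00) and the receptor phosphatase gene Ptprf (-1.87).

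The comparison of acupuncture with ICH asks what the treatment changed after a haemorrhage; it uses the same ICH libraries as the comparison above. Of 3510 exonic peaks listed in the authors' deposited table, 2333 were called (66.5%), beside 73.8% of all 20948 listed peaks. Of these, 583 were higher in acupuncture and 1750 lower (16.6% and 49.9% of those listed), beside 11.5% and 62.2% of all listed peaks. The median difference of all listed peaks was -0.46, and counted from it, 1111 called exonic peaks lay above and 1222 below (47.6% above, instead of 25.0%). At the authors' adjusted p under 0.01, 1367 remained past the threshold.

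Direction again went with RNA level. Of called exonic peaks in genes below 1 FPKM, 42.9% were in the authors' deposited table higher in acupuncture, 34.4% for 1 to 5 FPKM, 21.2% for 5 to 20 FPKM and 8.89% above 20 FPKM. Of 289 genes with 2 or more called exonic peaks, 40 had all higher, 196 all lower and 53 both directions.

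Among exonic peaks of at most 1000 bp that met the rule for named genes, the largest decreases in acupuncture were in Plppr1 and Tulp4. Plppr1, a membrane protein of neurite growth, had in the authors' deposited table a peak (chr4:49206493-49206642) at -3.47 in acupuncture and 0.78 in ICH (difference -4.25, authors' adjusted p = 0.00432055). Plppr1 RNA was 3.01, 2.51 and 2.53 FPKM in sham, 1.56 and 1.38 in ICH and 1.24 and 1.18 in acupuncture. Its fall from sham to acupuncture was called (log2 fold change -0.74, SE 0.11, limma adjusted p = 0.00626), and acupuncture and ICH did not differ past the threshold (-0.16, SE 0.12, limma adjusted p = 0.424). Tulp4 had a peak (chr17:6232120-6232219) at -1.85 and 2.31 in the authors' deposited table (difference -4.16), with RNA of 7.37 and 8.71 FPKM in ICH and 6.81 and 7.15 FPKM in acupuncture.

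Slc40a1 encodes ferroportin, the only known exporter of iron from cells. An exonic peak of this gene (chr1:45924599-45924773) stood at -1.10 in acupuncture and 1.65 in ICH in the authors' deposited table (difference -2.75, authors' adjusted p = 0.0274243). No peak of the acupuncture list overlapped that place. The group lists still gave Slc40a1 an exonic peak in every group: 1 in sham (1.47), 2 in ICH (median 1.27) and 1 in acupuncture (1.45). Slc40a1 RNA was 0.849, 0.880 and 1.09 FPKM in sham, 2.15 and 1.81 in ICH and 2.10 and 2.40 in acupuncture, so both haemorrhage groups lay above sham and overlapped each other. The other named decreases in the authors' deposited table were in Hook3 (-3.21), Zfp780b (-3.20), the Hedgehog inhibitor gene Hhip (-3.01), Pik3ap1 (-2.81), the Ras GTPase activator gene Rasa2 (-2.77), Csmd3 (-2.75) and Fbrs (-2.61).

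By the same rule, the largest increases in acupuncture over ICH in the authors' deposited table were in Fam205a2 (3.36), the phosphodiesterase gene Pde3b (3.21), Haus4, which nucleates spindle microtubules (3.01), the focal adhesion gene Tns1 (2.85), the transcription factor gene Zic5 (2.74), the coagulation factor gene F5 (2.72), Dchs1 (2.63), Lcorl (2.44), Sbsn (2.40) and Cnbd2 (2.31). The Zic5 peak stood at 3.31 in acupuncture and 0.57 in ICH in that table. The Lcorl peak here (chr5:45724500-45724949) is not the one that was lower in ICH than in sham. Likewise, this Fam205a2 peak (chr4:42524430-42524854) is not the one lower in ICH than in sham (chr4:42524955-42525804). The Fam205a2 peak named below against sham lies at yet another place (chr4:42522755-42522879). Fam205a2 is a near-identical copy of other genes of its cluster, so its values are uncertain.

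**Figure D4:**
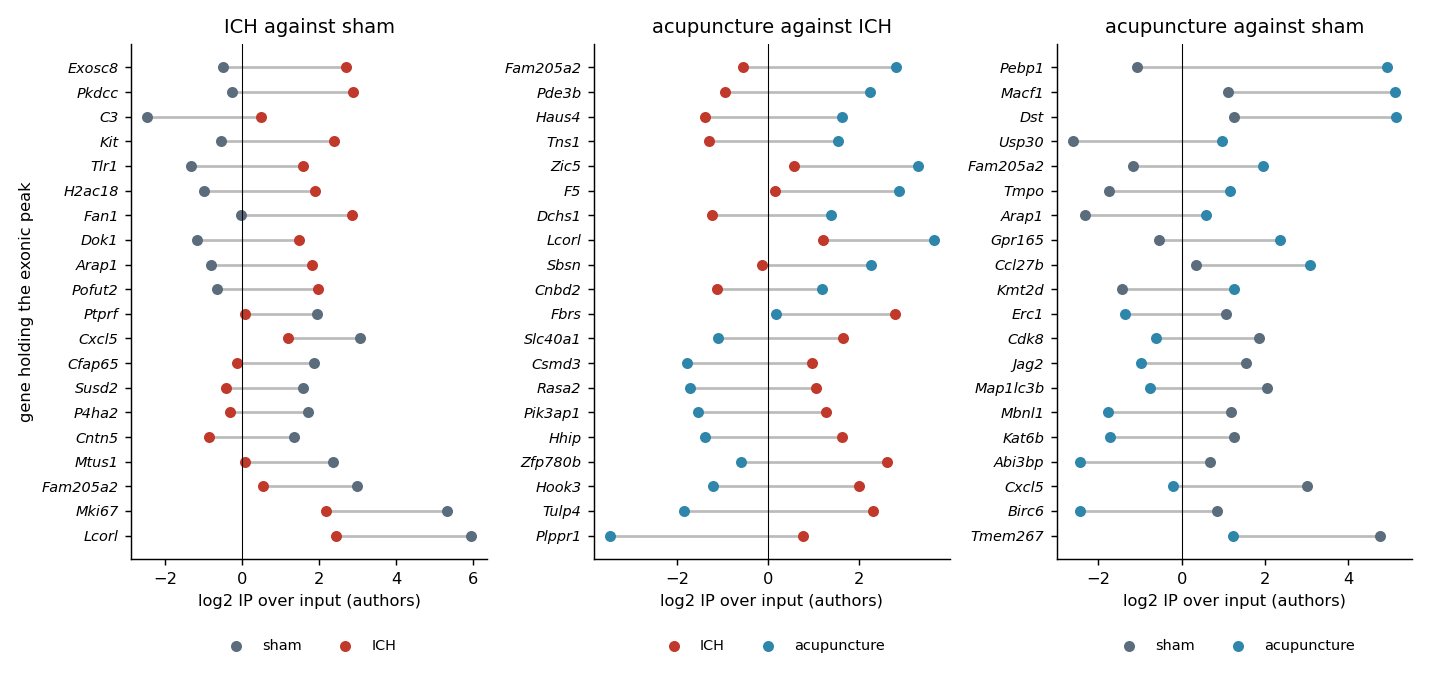
Exonic peaks with the largest differences per table, 1 row per gene, at most 1000 bp wide. Both points of a row are log2 IP over input as the authors computed it, for the 2 groups compared; the line joins them, and in 46 of the 60 rows the lower point lies below 0.

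The comparison of acupuncture with sham uses the same acupuncture and sham libraries again. Of 3166 exonic peaks listed in the authors' deposited table, 1843 were called (58.2%), 965 higher in acupuncture and 878 lower (30.5% and 27.7% of those listed). Among all 17242 listed peaks 63.6% were called, 37.6% higher and 26.1% lower. The median difference of all listed peaks was 0.24, and 48.5% of called exonic peaks lay above it. Of the called exonic peaks, 52.4% were higher, against 72.6% in the authors' deposited table of ICH and sham, which shares the sham libraries.

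Among peaks that met the rule for named genes, the largest increase was in Pebp1, which encodes a binding protein of Raf kinase. Its peak (chr5:117285769-117285943) stood in the authors' deposited table at 4.93 in acupuncture and -1.08 in sham (difference 6.01, authors' adjusted p = 1.13524e-62). A wider Pebp1 peak, longer than the 1000 bp set for named peaks, overlaps it in the authors' deposited table of acupuncture against ICH. The acupuncture peak list, however, gives the exonic peak at this place a log2 enrichment of 0.60. Pebp1 RNA was 134.8, 115.8 and 114.8 FPKM in sham, 121.9 and 55.3 in ICH and 119.8 and 116.6 in acupuncture, so the sham and acupuncture libraries overlapped and ICH replicate 2 stood low.

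Macf1 and Dst, among the genes with the most exonic peaks, came next among peaks of at most 1000 bp. A wider exonic peak of Gbp2, an interferon-induced GTPase of the reactive astrocyte list, had a difference of 4.35 in the authors' deposited table (0.15 in acupuncture and -4.20 in sham). A Macf1 peak (chr4:123474661-123474760) stood in the authors' deposited table at 5.13 in acupuncture and 1.11 in sham, and a Dst peak (chr1:34188741-34188915) at 5.15 and 1.25. No peak of the acupuncture list overlapped either place, and the highest exonic enrichments listed there were 2.70 for Macf1 and 1.75 for Dst. Both sources thus gave different acupuncture values for the Pebp1 place, and the list gave none for the places in Macf1 and Dst. The other named increases in the authors' deposited table were Usp30 (3.58), Fam205a2 (3.14), Tmpo (2.92), Arap1 (2.91), Gpr165 (2.90), Ccl27b (2.73) and Kmt2d (2.69).

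By the same rule, the largest decreases against sham were in Tmem267, Birc6 and Cxcl5. Tmem267 (chr13:119495087-119495411) stood in the authors' deposited table at 1.22 in acupuncture and 4.77 in sham (difference -3.55), close to the 1.27 and 5.11 of the group lists. Birc6, an inhibitor of apoptosis, stood at -2.45 and 0.84, and Cxcl5 at -0.20 and 3.02 in the authors' deposited table. The other named decreases were Abi3bp (-3.11), the histone acetyltransferase gene Kat6b (-2.97), the splicing factor gene Mbnl1 (-2.96), the autophagy gene Map1lc3b (-2.81), the Notch ligand gene Jag2 (-2.53), Cdk8 (-2.48) and the active zone gene Erc1 (-2.42), all from the authors' deposited table.

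The differential tables and the group lists were set side by side for all called exonic peaks. In ICH against sham, 2872 of 3209 overlapped a listed ICH peak of the same gene and 2281 a listed sham peak. An overlapping listed peak was labelled exonic for 2479 and 1960 of them. The remaining overlaps were with listed peaks of another label only. For example, the listed peaks over the named Crebbp place were labelled 3′ UTR in both acupuncture and sham. Where exactly 1 listed peak overlapped, the values of the authors' deposited table and of the list were more than 1 apart in 2.00% of peaks for ICH and 1.95% for sham. In the other tables these shares ran from 1.23% to 3.01%. Among the 60 peaks named for their size, 48 overlapped a listed peak in the group where they were higher, and 8 in the group where they were lower.

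Counts by gene list are read beside the direction of all calls. Of all called exonic peaks in the authors' deposited table, 72.6% were higher in ICH than in sham and 75.01% lower in acupuncture than in ICH; over all called peaks these shares were 79.5% and 84.4%. Against this background, all called exonic peaks of ribosomal protein and oxidative phosphorylation genes had the more common direction in both tables, and so did those of myelin genes. The same held for the 5 called peaks of the brain marker list in each of these tables. Of ribosomal protein genes, 12 exonic peaks in 10 genes were called in the authors' deposited table of ICH against sham, all higher (median difference 0.80 on the log2 scale). In acupuncture against ICH, 8 were called, all lower (median -0.54), and in acupuncture against sham 3, all higher (median 0.23). Rpl3 (chr15:80079793-80080017), a protein of the large subunit, had 1.33 in ICH and 0.47 in sham in the authors' deposited table. Rpl3 RNA was 105.4, 93.6 and 106.0 FPKM in sham, 111.4 and 68.7 in ICH, and 125.9 and 116.8 in acupuncture. These genes have many processed copies in the genome, and how reads that match several copies were counted was not given in the sources used here.

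Oxidative phosphorylation genes, which encode the respiratory chain, gave 12 called exonic peaks in ICH against sham, all higher (median 0.59), in the authors' deposited table. They gave 8 in acupuncture against ICH, all lower (median -0.39), and 5 in acupuncture against sham, all higher (median 0.29). Atp5c1, a subunit of the ATP synthase, stood at 0.997 in ICH and 0.188 in sham in the authors' deposited table. Its RNA was 69.7, 64.6 and 67.8 FPKM in sham, 68.6 and 51.7 in ICH and 70.4 and 74.1 in acupuncture.

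Myelin genes gave 8 called exonic peaks in ICH against sham, all higher (median 0.53), in the authors' deposited table. They gave 7 in acupuncture against ICH, all lower (median -0.27), and 5 higher with 1 lower in acupuncture against sham. Cnp, an enzyme of oligodendrocytes, had a peak (chr11:100576527-100580727) at 1.36 in ICH and 0.74 in sham in the authors' deposited table. Its RNA was 116.5, 99.9 and 125.3 FPKM in sham, 78.5 and 54.8 in ICH and 77.4 and 56.0 in acupuncture, which did not pass the test (ICH against sham log2 fold change -0.78, SE 0.21, limma adjusted p = 0.0889). In bulk tissue, fewer cells of a type and less RNA per cell cannot be told apart. Rpl3, Atp5c1 and Cnp had more RNA than the median tested gene (5.38 FPKM), and the median difference of all listed peaks was 0.56 and -0.46 in the first 2 tables. Of called exonic peaks in genes above 20 FPKM, 89.3% were higher in ICH than in sham. The part of RNA level in these counts was not tested.

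Genes of haem and iron handling gave 7 called exonic peaks higher and 1 lower in ICH than in sham in the authors' deposited table, and 7 lower and none higher in acupuncture than in ICH, a split in the common direction of both tables. Gclm, the modifier subunit of the enzyme that starts glutathione synthesis, had the smallest authors' p of the list in both tables. Its exonic peak (chr3:122256680-122259266) had 2.63 in ICH and 1.71 in sham in the authors' deposited table (authors' adjusted p = 4.99081e-14). In the table of acupuncture against ICH, the same place had 0.17 in acupuncture and 2.69 in ICH (authors' deposited table, adjusted p = 1.34194e-89). The group lists gave Gclm an exonic peak of 1.62 in sham and 2.67 in ICH, and none in acupuncture. Gclm RNA was 10.6, 10.5 and 8.41 FPKM in sham, 11.8 and 11.4 in ICH and 13.99 and 12.7 in acupuncture, with no comparison past the threshold. Ireb2, which encodes an iron-responsive RNA-binding protein, had 0.18 in acupuncture and 1.44 in ICH in the authors' deposited table, with 6.19 and 5.85 FPKM in ICH and 5.29 and 5.87 in acupuncture.

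Genes of the m6A machinery itself also had exonic peaks. In sham, ICH and acupuncture the group lists held 2, 5 and 3 of them for writers and 11, 13 and 11 for erasers and readers. Of tested members, 6 of 8 writers and 5 of 8 erasers and readers had one in any group, beside 7361 of all 13666 tested genes. Of 8 writer genes, the authors' deposited table listed 3, 1 and 2 peaks in the 3 comparisons, and 1 was called in each. Mettl3, the catalytic subunit, stood at 1.45 in ICH and 0.74 in sham in the authors' deposited table. Wtap, which anchors the complex in the nucleus, stood at 2.42 in acupuncture and 2.62 in ICH, and at 2.43 and 2.76 in acupuncture and sham, in the authors' deposited table. Of 11 erasers and readers, 5 of 6 listed peaks were called higher in ICH than in sham in the authors' deposited table. In acupuncture, 4 of 6 were called lower than in ICH and 2 of 3 higher than in sham, with no call the other way. Over all listed exonic peaks these 3 shares were 61.9%, 49.9% and 30.5%. In either direction, 85.3%, 66.5% and 58.2% of all listed exonic peaks were called. The demethylase gene Fto had a peak (chr8:91391423-91441987) at 2.17 in ICH and 1.71 in sham, and the reader gene Hnrnpa2b1 one at 0.96 and 0.48 in the authors' deposited table. Fto RNA was 11.5, 10.01 and 11.1 FPKM in sham, 10.5 and 10.9 in ICH and 9.46 and 8.98 in acupuncture. None of the 16 tested genes of both lists was called in RNA level by limma's test. Over all tested genes 5.68%, 0.0366% and 11.7% were called in the 3 comparisons in turn.

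Synaptic genes had called exonic peaks in both directions. Over all called exonic peaks, 72.6%, 25.0% and 52.4% were higher in the 3 tables in turn. Postsynaptic scaffold genes gave 11 exonic peaks higher and 10 lower in ICH than in sham in the authors' deposited table, 12 higher and 7 lower in acupuncture than in ICH, and 2 higher and 10 lower in acupuncture than in sham. Shank1, a master scaffold of the postsynaptic density (chr7:44353684-44359208), had 3.20 in ICH and 3.63 in sham, and 3.60 in acupuncture beside 3.41 in ICH, in the authors' deposited table. Against sham, its acupuncture value was 3.31 beside 3.59. The group lists did not show a lower Shank1 value in ICH. Over this place they gave 3.56 in sham, 2 peaks of 1.38 and 3.68 in ICH, and 3.41 in acupuncture. Shank1 RNA overlapped in all groups, at 34.6, 42.7 and 36.5 FPKM in sham, 33.2 and 46.2 in ICH and 32.0 and 34.3 in acupuncture. Glutamate and GABA receptor genes gave 13 higher and 5 lower in ICH than in sham, then 5 and 5, then 7 and 3, in the authors' deposited table. Their split in ICH against sham was near that of all called exonic peaks. Grin2a, a subunit of the NMDA receptor, stood at 2.84 in ICH and 3.55 in sham, and at 2.61 in acupuncture beside 3.41 in sham, in that table.

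Chromatin regulators had called exonic peaks in both directions. Of all called exonic peaks, 27.4%, 75.01% and 47.6% were lower in the 3 tables in turn. In the authors' deposited table, 19 were higher and 23 lower in ICH than in sham (median of called peaks -0.31), 12 and 17 in acupuncture against ICH (-0.37), and 4 and 19 in acupuncture against sham (-0.42). Kmt2d (chr15:98844432-98845206) had 0.91 in ICH and 2.03 in sham, and the acetyltransferase gene Crebbp had 1.64 in acupuncture and 2.51 in sham, in that table. Kmt2d RNA was 5.68, 5.82 and 5.75 FPKM in sham, 5.51 and 6.08 in ICH and 4.95 and 6.38 in acupuncture. Another Kmt2d peak was among the largest increases over sham, so its peaks had both directions. In the list of giant scaffold genes, 36 were higher and 27 lower between ICH and sham. The authors' deposited table of acupuncture and ICH gave 14 higher and 31 lower, and that of acupuncture and sham 18 and 23.

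Genes of Notch and Wnt signalling were split as well, with 7 higher and 8 lower, 6 and 7, and 7 and 7 in the authors' deposited table. The receptor gene Notch3 (chr17:32139659-32143344) had 0.73 in ICH and 2.38 in sham, and 0.88 in acupuncture beside 2.30 in sham, in that table. Notch2 had 0.43 in ICH and 1.81 in sham, and 1.42 in acupuncture beside 0.37 in ICH. The listed peaks over the Notch2 place were labelled 3′ UTR in sham (2.77) and acupuncture (2.71), and exonic only in ICH (0.70). The coreceptor gene Lrp6 stood at 1.97 in acupuncture and -0.41 in sham in the authors' deposited table. Notch3 RNA was 2.13, 1.78 and 2.05 FPKM in sham, 1.94 and 1.59 in ICH and 2.17 and 2.00 in acupuncture.

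Lists of glial and neuronal identity gave few called exonic peaks per table. An exonic peak in any group was listed for 7361 of all 13666 tested genes. Beside this stood 7 of 14 striatal, 10 of 20 immediate early, 7 of 12 protocadherin and 8 of 17 reactive astrocyte genes. For microglia and macrophage genes it was 5 of 17, and for astrocyte homeostasis genes 3 of 12. Over all genes, 85.3%, 66.5% and 58.2% of listed exonic peaks were called in the 3 tables. Microglia and macrophage genes gave 1 called peak in ICH against sham, higher, in Itgam, and 4 in acupuncture against ICH, all lower. Reactive astrocyte genes gave 2, 1 and 2 called peaks in the authors' deposited table, which were all of those listed. Astrocyte homeostasis genes gave 2, 2 and 0 (of 2, 2 and 1 listed) and striatal neuron genes 1, 3 and 2 (of 1, 6 and 5). Immediate early genes gave 2, 2 and 1 (of 3, 2 and 1) and protocadherins 3, 0 and 1 (of 3, 3 and 1). C1qa, a complement component made by microglia, had a peak at 0.71 in acupuncture and 1.27 in ICH in the authors' deposited table, and Ctss, a lysosomal protease, 0.60 and 1.24. C1qa RNA was 21.1, 29.4 and 33.3 FPKM in sham, 176.1 and 72.5 in ICH and 208.8 and 223.1 in acupuncture. The ICH call of C1qa RNA (log2 fold change 2.00, SE 0.36, limma adjusted p = 0.0232) was lost without any of the sham or acupuncture libraries (limma adjusted p 0.0524 to 0.0860).

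**Figure D5:**
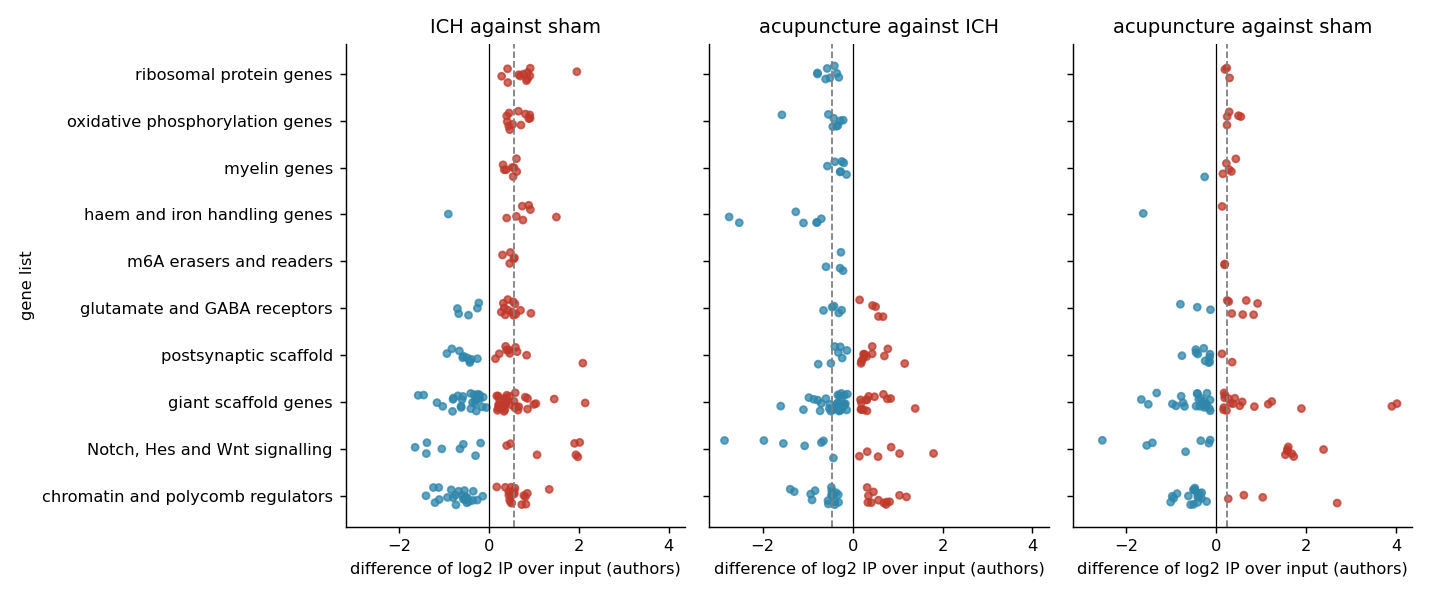
Differences of log2 IP over input (horizontal axis, authors' values) of called exonic peaks, 1 point per peak, by gene list and comparison; red is above 0 and blue below. The dashed line is the median of all listed peaks (0.56, -0.46 and 0.24), and ribosomal protein genes lie on 1 side of 0 in each panel while chromatin and giant scaffold genes lie on both.

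RNA levels of genes with an exonic peak changed about as often as those of all tested genes. Of 7361 tested genes with an exonic peak in any group, 409 differed between ICH and sham by limma's moderated test (Benjamini-Hochberg adjusted p under 0.05 over all 13666 genes). Of these 358 rose (4.86%) and 51 fell (0.693%). Over all tested genes 5.68% were called, 4.95% up and 0.724% down. Without sham replicate 1, 2 or 3 the count was 207, 221 and 218, and without ICH replicate 1 it was 2739. Between acupuncture and sham 869 were called (11.8%), 601 up (8.16%) and 268 down (3.64%), beside 11.7%, 8.47% and 3.22% of all genes. After quantile normalization these were 456 up and 440 down. Leaving out a library gave 407 (acupuncture replicate 2), 417 (acupuncture replicate 1), 433, 540 and 446 (sham replicates 1, 2 and 3), 1732 (ICH replicate 1) and 1727 (ICH replicate 2).

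Between acupuncture and ICH, whose first ICH library lay closer to the acupuncture libraries than to the other ICH library, none of these genes was called by limma, beside 0.0366% of all tested genes, and 1445 had an unadjusted p under 0.05. Without ICH replicate 1, when ICH replicate 2 alone stands for its group and is assumed to vary like the others, 2753 were called. Without ICH replicate 2 the count was 1, and without acupuncture replicate 1 or 2 it was 5 and 1.

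Among the gene lists, reactive astrocyte and microglia genes had RNA calls in most members. Of 8 reactive astrocyte genes with an exonic peak that were tested, 7 rose in ICH and 8 in acupuncture against sham. Lcn2, a secreted iron carrier, had 0.595, 0.765 and 0.574 FPKM in sham, 38.6 and 41.9 in ICH and 91.7 and 45.8 in acupuncture (ICH against sham log2 fold change 4.65, SE 0.26, limma adjusted p = 0.000262). Lcn2 met the minimum mean of 1 FPKM only through the haemorrhage groups. All 5 tested microglia and macrophage genes with an exonic peak rose in both haemorrhage groups against sham. Itgam, the integrin chain CD11b, went from 3.39, 4.00 and 4.16 FPKM in sham to 19.6 and 21.1 in ICH and 23.9 and 18.6 in acupuncture. An Itgam exonic peak stood at 0.97 in ICH and 0.29 in sham in the authors' deposited table, while the group lists gave 1.02 and 0.55 at this place. Those lists held 4 Itgam exonic peaks in sham (median 0.68), 1 in ICH and none in acupuncture.

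Striatal neuron genes went down. Of 7 tested members with an exonic peak, 5 fell in ICH and 7 in acupuncture against sham. Pde10a, a phosphodiesterase of striatal projection neurons, had 24.7, 23.5 and 25.8 FPKM in sham, 13.7 and 15.7 in ICH and 7.25 and 5.89 in acupuncture, with groups that did not overlap (acupuncture against sham log2 fold change -1.77, SE 0.12, limma adjusted p = 0.000215). Among haem and iron genes with an exonic peak, 5 of 14 rose and 1 fell in ICH, and 7 rose and 1 fell in acupuncture against sham. Of 12 ribosomal protein genes with an exonic peak, 1 rose in ICH and 4 in acupuncture against sham. Rps4x had 73.7, 66.3 and 69.9 FPKM in sham, 97.4 and 94.9 in ICH and 130.2 and 121.4 in acupuncture, and was the one called in ICH (log2 fold change 0.45, SE 0.10, limma adjusted p = 0.0472). None of the 9 tested oxidative phosphorylation genes with an exonic peak and none of the 25 chromatin regulators was called in any comparison. Among all tested genes, 5.68% were called in ICH against sham, 0.0366% in acupuncture against ICH and 11.7% in acupuncture against sham. Of 23 giant scaffold genes, 1 rose and 5 fell in acupuncture against sham, and none was called in ICH.

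Set beside each other, a gene's exonic m6A difference and its RNA difference were weakly related. Over 2300 genes with a called exonic peak in the authors' deposited table of ICH against sham, Spearman's rho across genes was -0.23. It was -0.21 over 1801 genes for acupuncture against ICH and 0.02 over 1371 genes for acupuncture against sham. Both values come from the same input libraries, since the input is the denominator of the enrichment, so these are descriptions. In ICH against sham, 97 of the 2300 genes were called in RNA (4.22%): 59 were higher in both, 24 lower in m6A with more RNA, 12 higher in m6A with less RNA and 2 lower in both. In acupuncture against sham the 121 genes called in RNA (8.83%) fell as 29, 30, 33 and 29 over the same classes. Whatever their RNA, 1716 of the 2300 genes had higher and 584 lower m6A in ICH than in sham. Among the 1371 genes of acupuncture against sham these were 745 and 626. Of all 409 genes with an exonic peak called in RNA in ICH, 358 rose. Whether the classes depart from these shares was not tested.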

How the data were processed

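m6A sequencing of mouse brain gave 7 IP and 7 input libraries. Per the submitters' processing notes the tools were fastp, HISAT2, HOMER, StringTie and edgeR; the sources used here give no versions or roles, and no peak caller or libraries for each list. A human build is named there, but all 8658 genes with exonic peaks that matched RefSeq by symbol overlapped their GRCm38.p6 locus. The deposited peak lists and differential tables give log2 values, p-values and adjusted p-values computed by the authors, for peaks with p under 0.05 (a few differential peaks have none). Starts counted from 0 were shifted by 1. Gene levels were deposited by the authors as FPKM per input library; the sham and acupuncture columns are headed control and EA and were matched by elimination, and 2 columns that match no sample, an extra ICH and an extra EA library, were not used. Depth is unknown. Genes averaging 1 FPKM or more over the 7 libraries were tested on log2(FPKM + 1) in limma 3.58.1 (R 4.3.3), 3 groups in 1 fit with a variance trend, two-sided; the script was tested on simulated data. Genes below 1 FPKM in sham could pass this filter through the haemorrhage groups alone. Fold changes on this scale understate low genes. Overlaps and counts used Python 3.11.15 and pandas 2.3.3. Called means adjusted p under 0.05. Named genes are, among peaks of at most 1000 bp in genes of at least 1 FPKM with an approved symbol, outside chromosome 18, and authors' adjusted p under 0.05, the 6 most enriched per group and the 10 largest differences per direction and table, the 6 genes with the most exonic peaks per group, and up to 2 members per list and table with the smallest authors' p and the smallest limma p. RNA values are shown for chosen examples of these. Members, the 19 gene lists and rules were chosen with earlier results of these data known. Alternatives changed thresholds, width, pseudocount, filter, normalization, trend, block and libraries. No genome sequence was read.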

Additional observations from a re-analysis of the deposited data

How the results depend on the processing

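Counts of exonic peaks held within 1.5 times when an authors' adjusted p under 0.05 was required. With a log2 enrichment of at least 1 as well, they fell to 3030 in sham, 6120 in ICH and 3508 in acupuncture, and with a width of at most 1000 bp to 4107, 5040 and 4411. Called exonic differences of ICH against sham, acupuncture against ICH and acupuncture against sham numbered 776, 717 and 693 with a difference of at least 1, and 1368, 985 and 768 with a width of at most 1000 bp. At adjusted p under 0.01, acupuncture against ICH numbered 1367 and acupuncture against sham 1031, and at unadjusted p under 0.05 the latter had 3150. A minimum of 1 FPKM, chosen after seeing the data, stayed within 1.5 times in number. Centring on the median of all listed peaks, also chosen after seeing the data, keeps the same called peaks, so their number could not change. It changed only how many counted as higher or lower, as given above. For RNA, a mean of at least 5 FPKM, which tests fewer genes, gave 100 genes for ICH against sham and 322 for acupuncture against sham, and a fit of only the 2 groups gave 1724 for the latter. Leaving out 1 library gave 207 to 2739 genes for ICH against sham, 0 to 2753 for acupuncture against ICH and 407 to 1732 for acupuncture against sham; the cause was not tested. Deviations from the group mean of samples with the same replicate number correlated at -0.015 to 0.094. In a group of 2 libraries these deviations are exact opposites, so the check cannot decide whether the numbers pair samples. With the replicate block 184, 0 and 370 genes were called. The other alternatives left these counts within 1.5 times. The median log2 enrichment of exonic peaks of at most 1000 bp was 0.79, 0.99 and 0.85 in sham, ICH and acupuncture, and the overlap shares under stricter settings stand beside the overlaps above. The planned search for the GGACT motif at peak centres was not run, because no genome sequence was used here. FPKM gives no depth, so low genes, where 1 read moves a ratio, cannot be told from well covered ones.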

Other observations

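Exonic peaks were also listed on mitochondrial transcripts, 10 in sham, 5 in ICH and 4 in acupuncture. In sham they included the complex IV gene mt-Co2 with a log2 enrichment of 1.64, the complex I genes mt-Nd2 (1.45), mt-Nd6 (1.31), mt-Nd5 (1.01) and mt-Nd1 (0.98), and mt-Cytb of complex III with 2 peaks (0.69 and 0.58). In ICH they were in mt-Co3 (1.47), mt-Nd3 (1.04), mt-Atp6 (0.95), mt-Co2 (0.92) and mt-Nd4 (0.66). In acupuncture they were in mt-Nd1 (0.86), mt-Nd5 (0.78), mt-Nd2 (0.69) and mt-Cytb (0.61). No gene was listed in all 3 groups.

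Some exonic peaks were listed with the very same bounds in 2 lists: 227 in sham and ICH, 321 in ICH and acupuncture, and 217 in sham and acupuncture.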
